A study of Bos grunniens and Bos grunniens x Bos taurus with 6 samples.

Results

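CFDP2-named and retrotransposon-derived transcribed loci are the stretches of the yak transcriptome whose long reads carry the name of the ruminant gene CFDP2, of a reverse transcriptase, of LINE-1 or of another transposable element. A gene identifier of the deposited transcript table was taken as such a locus when it held at least 30 reads pooled over the 6 libraries and at least 50% of them lay in transcripts annotated in this way. The rule used annotation and pooled reads and no comparison of the groups. It found 219 loci among 31044 gene identifiers, of which 10397 held 30 reads or more. Of the 219 loci, 195 carry an identifier given to genes assembled from the reads (assembled loci, TALONG numbers) and 24 carry an Ensembl identifier of Bos grunniens, the domestic yak (reference loci).

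Cattle-yak, which are cattle and yak hybrids, were compared with yak in longissimus dorsi, a long muscle that runs along the spine. There were 3 nanopore libraries of cattle-yak and 3 of yak, each made by PCR from the cDNA of whole transcripts with the kit SQK-PCS109 out of 1 µg of total RNA, and no treatment, age, sex or batch is given in the sources used here. The organism of cattle-yak is given as Bos grunniens x Bos taurus and that of yak as Bos grunniens. No label states that a group's 3 libraries stem from different animals. The p-values therefore reflect the spread among these samples alone, and that spread may be technical.

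Retrotransposons copy themselves through RNA: long interspersed elements (LINEs) encode an endonuclease, which nicks the genome, and a reverse transcriptase, which writes the element's RNA back into DNA. Cattle and their relatives carry many copies of LINE-1 and of BovB, an element of the RTE group that is also found in snakes and lizards. CFDP2 is a ruminant relative of CFDP1, a gene for a chromatin-associated protein of the BCNT (bucentaur) family, and carries an endonuclease domain of the RTE type.

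The annotation of the loci was dominated by the reverse transcriptase and not by CFDP2. By the annotation that held most of their matching reads, 177 loci were of the reverse transcriptase type (25645 pooled reads), 22 of the CFDP2 type (3309 reads), 17 of the LINE-1 type (1087 reads) and 3 of other transposable elements (336 reads). Only 17 loci took CFDP2 as their symbol, 14 of them assembled, and transcripts with that symbol held 7.52% of the reads of all loci. Among the assembled loci, 120 had no symbol and 41 were named POL, the usual name of a retroviral or retrotransposon polymerase gene. The 3 loci of other elements were TALONG000098973, named TIGD2 after the transposase of tigger DNA transposons, TALONG000109621, with transcripts described as tigger-like and the symbol CUTA, and RTL5 (ENSBGRG00000025269), a gene derived from the gag gene of an LTR retrotransposon.

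A single database entry stood behind most of these names. The description "endonuclease-reverse transcriptase [Babesia ovata]" was attached to 266 transcripts in 168 loci and to 83.0% of the 26416 matching reads, and entries of that species held 85.2% in all. Entries of Bos taurus held 2.92% and those of Varanus komodoensis, the Komodo dragon, 2.81%. Babesia is a blood parasite of cattle. The description names the database protein paired with a transcript and not the source of the RNA, and the source of these reads was not tested. The Gene Ontology term for RNA-directed DNA polymerase activity was given to 119 transcripts in 74 of the loci, with 11500 reads.

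Most loci were small and simple. The 219 loci together held 30377 pooled reads, with a median of 57 and a highest value of 3016, and the 10 most read held 42.4% of them. A single transcript made up 174 loci (79.5%). Among the 195 assembled loci, 87.7% had 1 transcript, against 80.3% of the 3633 other assembled loci with 30 reads or more. The 24 reference loci had a median of 10 transcripts, up to 66 in FUNDC2, and held 14058 reads. In 180 loci every read lay in a matching transcript.

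At the edge of the rule, 5 loci held exactly 30 reads, among them TALONG000044936, TALONG000039390 and TALONG000133183 (CFDP2), and 4 held 29 reads and were left out, among them TALONG000142332, TALONG000038529 and GIN1 (ENSBGRG00000019005). Shares of matching reads just inside were 50% in NT5C1A (ENSBGRG00000000790) and in TALONG000078575 (DST) and 54.8% in ENSBGRG00000010283 (POL). Just outside, they were 44.5% in TALONG000100427 (POL), 42.1% in CTNNA3 (ENSBGRG00000007162) and 42% in TALONG000050272 (F52C9.6). Between 50% and 60% lay 6 loci and between 40% and 50% lay 9.

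The libraries held between 2366057 and 2769106 counted reads in cattle-yak and between 2350851 and 2502603 in yak, and no 2 libraries of the same group agreed within sampling noise. Markers of skeletal muscle (10 of 12 listed genes found, 2 higher and 2 lower of 10 tested) summed to 102657 to 119409 CPM, the counts scaled to a common library total, in cattle-yak and 110986 to 120194 CPM in yak, as fits the labelled tissue. Summed macrophage markers (7 of 7 found, 1 of 3 tested higher) ran at 47.0 to 117 CPM in cattle-yak and 16.8 to 39.0 CPM in yak, and endothelial markers (5 of 5, none of 2 tested called) at 33.2 to 67.6 CPM in cattle-yak and 23.2 to 32.3 CPM in yak, without overlap in either. Fibroblast markers (6 of 6, 3 of 5 tested lower) ran at 240 to 456 CPM in cattle-yak and 400 to 527 CPM in yak. Smooth muscle markers (3 of 3) ran at 115 to 172 CPM in cattle-yak and 105 to 128 CPM in yak, and lymphocyte markers (5 of 5) at 2.52 to 14.1 CPM in cattle-yak and 1.28 to 6.22 CPM in yak. The single adipocyte marker found of 4 ran at 2.10 to 18.6 CPM in cattle-yak and 12.8 to 17.0 CPM in yak, and erythroid markers (2 of 3) at 0.361 to 2.52 CPM in cattle-yak and 2.49 to 23.2 CPM in yak. No found marker was at 0 in all 6 libraries, and the part of these differences in the results on the loci was not tested. In bulk tissue, fewer cells of a type and less RNA per cell cannot be told apart.

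A larger share of the library lay in the loci in cattle-yak than in yak. The 3 cattle-yak libraries had 0.224%, 0.239% and 0.207% of their counted reads in the 219 loci, and the 3 yak libraries 0.201%, 0.180% and 0.182%. The means were 0.224 ± 0.0160% in cattle-yak and 0.188 ± 0.0118% in yak (SD, n = 3 each). The groups differed by 0.0361 percentage points and did not overlap. No test was made of such a sum.

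The assembled loci carried most of that difference. They held 0.119%, 0.141% and 0.114% of the cattle-yak libraries (mean 0.125 ± 0.0144%) and 0.107%, 0.0880% and 0.0938% of the yak libraries (mean 0.0962 ± 0.00952%; SD, n = 3 each), without overlap. The reference loci held 0.0989 ± 0.00643% in cattle-yak and 0.0915 ± 0.00346% in yak, and there the groups overlapped. By type, the CFDP2 loci held 0.0252 ± 0.00389% in cattle-yak and 0.0196 ± 0.00209% in yak, and the reverse transcriptase loci 0.188 ± 0.0146% in cattle-yak and 0.159 ± 0.00808% in yak, both without overlap. Of the 706, 563 and 616 reads of the CFDP2 loci in cattle-yak, the locus TALONG000143565 held 140, 73 and 51. In yak it held 4, 3 and 9 of 517, 472 and 435 reads. Without this 1 locus the groups would overlap in the CFDP2 type. The LINE-1 loci held 0.00780 ± 0.00145% in cattle-yak and 0.00693 ± 0.00144% in yak, with overlap. When only loci with at least 90% of matching reads were kept, the difference over all loci was 0.0197 points and the groups overlapped. They overlapped as well with loci of 100 reads or more.

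All assembled genes together had the same order of groups. They took 10.7 ± 1.81% of the reads in cattle-yak and 8.34 ± 0.374% in yak, with 12.7% in cattle-yak 2 as the highest value. Set against the reads of assembled genes, the assembled retrotransposon-type loci held 1.18%, 1.11% and 1.23% in cattle-yak and 1.25%, 1.03% and 1.19% in yak. These means of 1.17 ± 0.0627% in cattle-yak and 1.15 ± 0.116% in yak lay within each other's spread. Relative to all assembled genes, the larger share in cattle-yak was not seen.

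Matching transcripts also lay outside the loci, as 2169 transcripts in 2020 genes, 453 of them reference genes, with 19681 pooled reads. They took 0.138%, 0.195% and 0.129% of the cattle-yak libraries and 0.118%, 0.115% and 0.105% of the yak libraries. The difference between the means was 0.0419 percentage points, and 0.0214 points without cattle-yak 2. The groups did not overlap.

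**Figure D1:**
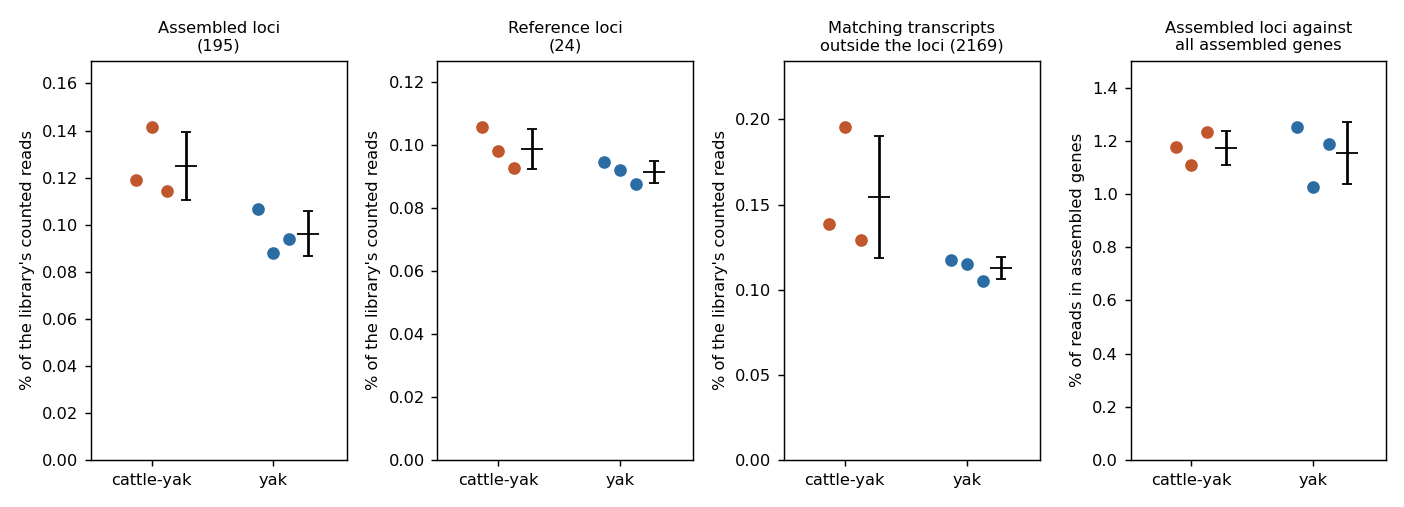
Share of counted reads in percent for the 6 libraries, cattle-yak left and yak right in each panel; points are libraries, and the black mark with its bar is the mean with SD (n = 3). The assembled loci and the matching transcripts outside the loci were higher in every cattle-yak library than in any yak library, the reference loci overlapped, and relative to all assembled genes (right panel) the groups overlapped, with means of 1.17% in cattle-yak and 1.15% in yak.

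Tested gene by gene, 11 loci were higher and 5 lower in cattle-yak. Counts were compared with edgeR's quasi-likelihood test over all genes with enough reads, and a locus was called where the Benjamini-Hochberg adjusted p was under 0.05. Of the 219 loci, 106 had enough reads to be tested and 113 did not, so the counts below do not speak for all loci. Of the 106, 10.4% were higher and 4.72% lower, and 90 did not pass; at an unadjusted p under 0.05, 20 were higher and 12 lower. Over all 7504 genes tested, 6.45% were higher and 6.18% lower. The fitting background for the assembled loci is the 2164 assembled genes tested, of which 9.84% were higher and 4.71% lower: 11 of 89 assembled loci (12.4%) were higher and 4 (4.49%) lower, close to it.

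The reference loci gave 0 higher and 1 lower of 17 tested with edgeR, 1 higher and 3 lower at an unadjusted p under 0.05, and 0 higher and 1 lower with DESeq2. The background over the 5340 reference genes tested was 5.07% higher and 6.78% lower. Of the 11 tested CFDP2 loci, 2 were higher and 1 lower. Of the 6 tested LINE-1 loci none was called by edgeR or DESeq2, with 0 higher and 1 lower at an unadjusted p under 0.05.

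The middle of the loci leaned the same way as that of all assembled genes. The median log2 fold change of cattle-yak over yak was 0.21 for the 106 tested loci, 0.21 for the assembled genes tested and 0.02 for all genes tested. Without cattle-yak 2 the median of the loci was 0.06, without cattle-yak 3 it was 0.06, and without yak 1 it was 0.43, over the loci tested in each case. Scaling by library size alone moved the median of all genes to 0.17 and that of the loci to 0.36, with 13 loci higher and 4 lower, and 658 genes higher and 304 lower in place of 484 and 464. Without TMM scaling or a filter on low counts, a count of loci whose libraries did not overlap in CPM gave 55 of 219 (25.1%) above and 21 (9.59%) below in cattle-yak. The same count over all loci with 30 reads or more gave 22.3% above and 9.41% below, and over the assembled ones 26.3% above and 6.56% below.

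**Figure D2:**
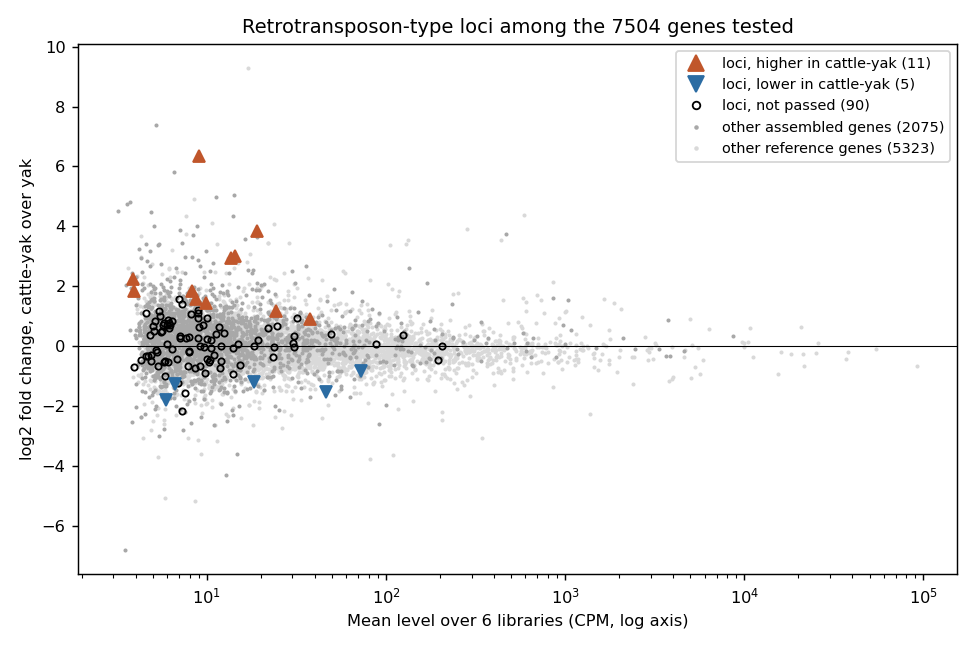
Log2 fold change of cattle-yak over yak against the mean level in CPM (log axis) for the 7504 genes tested with edgeR; upward triangles are the 11 loci higher in cattle-yak, downward triangles the 5 lower, open circles the 90 tested loci that did not pass, and grey points the other genes. The loci lie mostly at low levels, and the called ones lie on both sides of 0.

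Among the tested loci, the largest log2 fold change was at TALONG000071673, an assembled locus without a symbol whose 10 transcripts were named after the reverse transcriptase in 76.4% of their reads. It had 45, 27 and 54 reads in cattle-yak and 1, 0 and 0 reads in yak, and so passed the filters on reads through cattle-yak alone. A locus that passed in this way had to differ. The values of this locus are therefore a description, and its adjusted p-values are no separate support. Every cattle-yak library held at least 27 reads where the yak libraries together held 1, a ratio of 122 per counted read with a 95% exact binomial interval of 21.5 to 4848 that covers counting error only. The edgeR log2 fold change was 6.35 ± 0.66 (SE; adjusted p = 7.79e-05), a fitted value that depends on the prior count where a group is near 0. Its most read transcript, TALONT000551582, had 17, 10 and 28 reads in cattle-yak and none in the yak libraries, at least 17.7-fold higher if the yak group is set at a floor of 3 reads in all (edgeR adjusted p = 0.000792).

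The next 3 higher loci by adjusted p kept their call under every alternative tried. They too passed the filters on reads through cattle-yak alone, with fewer than 30 reads in the yak libraries together. The calls and their stability are therefore no separate support. TALONG000107980, a locus of 1 transcript described as the reverse transcriptase, had 69, 67 and 49 reads in cattle-yak and 6, 5 and 9 in yak. TALONG000143565, whose single transcript is named CFDP2 but described as the reverse transcriptase, had 140, 73 and 51 reads in cattle-yak and 4, 3 and 9 in yak. TALONG000039321, named POL, had 30, 94 and 52 reads in cattle-yak and 6, 10 and 4 in yak. In each of them the lowest cattle-yak library lay above the highest yak library. Their log2 fold changes were 3.0 ± 0.35 (adjusted p = 0.000161), 3.83 ± 0.52 (adjusted p = 0.00118) and 2.93 ± 0.49 (adjusted p = 0.00246) in that order, by edgeR. TALONG000039321 has 2 transcripts, TALONT000193374 with the reverse transcriptase description and TALONT000193221 named Pol, and both were higher by edgeR (adjusted p = 0.00363 and 0.00581), the second being named after its values were seen.

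TALONG000060319 carries the symbol SMCHD1, which belongs to a chromatin protein that silences genes, while its only transcript is described as the reverse transcriptase. It had 20, 36 and 35 reads in cattle-yak and 5, 8 and 9 in yak, which is 1.84 ± 0.39 on the log2 scale (edgeR adjusted p = 0.00774). The files give no coordinates, so whether such an assembled locus lies inside the gene whose symbol it bears cannot be read from them. Like TALONG000086573 below, TALONG000060319 met the rule on pooled reads only with its cattle-yak reads. The calls of both and their stability are therefore no separate support. TALONG000066915 had 93, 57 and 106 reads in cattle-yak and 40, 32 and 27 in yak (1.17 ± 0.27, adjusted p = 0.0120). TALONG000086573 had 33, 33 and 26 reads in cattle-yak and 12, 6 and 9 in yak (1.57 ± 0.36, adjusted p = 0.0123). Neither of these overlapped between the groups, but their calls by edgeR ended without yak 3 for TALONG000066915 (adjusted p = 0.0618, with 0.00364 to 0.0618 over its alternatives, DESeq2 among them as in every such range) and without yak 2 for TALONG000086573 (adjusted p = 0.0611, with 0.0100 to 0.0611).

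The other 4 higher loci were closer to the threshold. TALONG000055487, the second assembled CFDP2 locus that was higher, had 38, 40 and 24 reads in cattle-yak and 11, 9 and 13 in yak (1.43 ± 0.35, adjusted p = 0.0178). TALONG000093265, the most read of the 11, had 87, 164 and 124 reads in cattle-yak and 60, 68 and 49 in yak (0.89 ± 0.25, adjusted p = 0.0309). The groups overlapped in neither. TALONG000089071 had 11, 10 and 17 reads in cattle-yak and 4, 2 and 3 in yak (1.84 ± 0.51, adjusted p = 0.0315), and TALONG000075196 had 14, 13 and 12 in cattle-yak and 3, 0 and 4 in yak (2.23 ± 0.63, adjusted p = 0.0338). TALONG000089071 and TALONG000075196 met the rule on pooled reads only with their cattle-yak reads, so their calls are no separate support. The calls of all 4 loci were lost when single libraries were left out. Leaving out any 1 of the 6 ended the calls of TALONG000089071 (adjusted p of 0.0222 to 0.150 over the alternatives) and TALONG000075196 (0.0282 to 0.126), and DESeq2 called neither. The call of TALONG000089071 was also lost without the filter on low counts. Leaving out any library except cattle-yak 1 ended that of TALONG000093265 (0.00904 to 0.128), and leaving out cattle-yak 2, yak 1 or yak 2 ended that of TALONG000055487 (0.0103 to 0.0776).

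Among the 4 assembled loci lower in cattle-yak, the most read was TALONG000054008, a locus of 1 transcript with the reverse transcriptase description. It had 72, 52 and 61 reads in cattle-yak and 200, 127 and 143 in yak, and the highest cattle-yak library lay well under the lowest yak library. By edgeR the log2 fold change was -1.54 ± 0.22 (adjusted p = 0.000751). MRPS28 (ENSBGRG00000018011), a protein of the small subunit of the mitochondrial ribosome, was the only reference locus called, with 125, 142 and 139 reads in cattle-yak and 197, 213 and 230 in yak (-0.85 ± 0.17, adjusted p = 0.00553). Nearly all of its reads came from the transcript TALONT000191905, which carries the reverse transcriptase description and had 122, 134 and 127 reads in cattle-yak and 189, 200 and 221 in yak (edgeR adjusted p = 0.00793).

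The third CFDP2 locus called moved in the other direction. TALONG000088959 had 5, 7 and 6 reads in cattle-yak and 18, 20 and 18 in yak, which is -1.81 ± 0.39 on the log2 scale (edgeR adjusted p = 0.00858), so CFDP2-named loci were called both ways. TALONG000133354, with 15 transcripts that all match the annotation, the most read holding 53.3% of the reads, had 27, 20 and 38 reads in cattle-yak and 55, 54 and 61 in yak (-1.20 ± 0.27, adjusted p = 0.0107). TALONG000030893, named POL, had 10, 9 and 8 reads in cattle-yak and 16, 18 and 24 in yak (-1.28 ± 0.37, adjusted p = 0.0368). Like TALONG000088959, it met the rule on pooled reads only with its yak reads, so its call is no separate support. The call of TALONG000030893 ended without any 1 of the 6 libraries, with DESeq2 and with scaling by library size alone (adjusted p of 0.0356 to 0.169 over the alternatives). The groups overlapped at none of the 16 called loci. Copies of an element can be nearly identical, strand is not stated, and how reads were divided between copies or overlapping genes is not given in the sources used here, so the level of a single locus is uncertain to that extent.

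**Figure D3:**
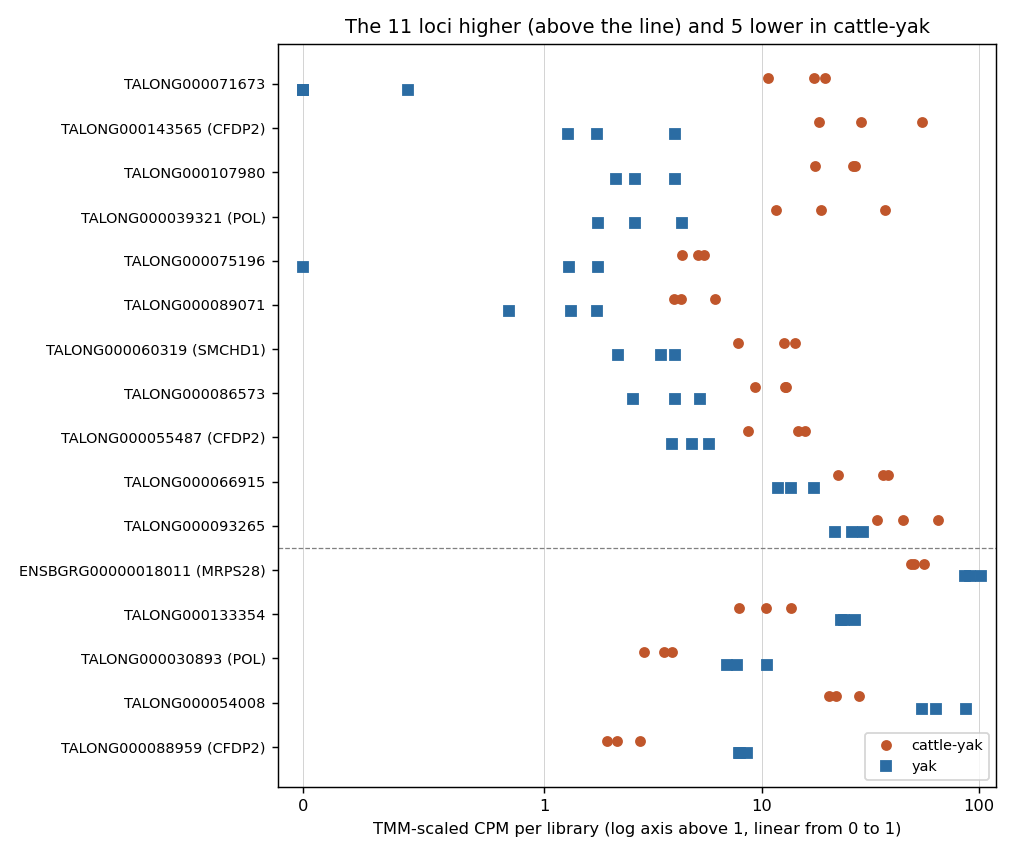
TMM-scaled CPM of the 16 called loci in each library, with cattle-yak (circles) above yak (squares) on each line; the axis is logarithmic above 1 and linear from 0 to 1. The 11 loci above the dashed line were higher in cattle-yak and the 5 below it lower, with no overlap between the groups at any of them.

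The CFDP2 loci that were tested and not called were spread on both sides of 0. The most read CFDP2 locus, ENSBGRG00000012860, is the gene that also holds the reference transcript of CFDP1, with 63 transcripts. It had 236, 209 and 262 reads in cattle-yak and 197, 204 and 185 in yak, which is 0.07 ± 0.16 on the log2 scale (edgeR adjusted p = 0.799). TALONG000066892 (CFDP2) had 28, 28 and 27 reads in cattle-yak and 18, 11 and 9 in yak (0.93 ± 0.34, adjusted p = 0.0916), without overlap. ENSBGRG00000019726 (CFDP2) had 18, 2 and 7 reads in cattle-yak and 19, 43 and 9 in yak, so that single libraries of both groups stood apart (-1.57 ± 0.72, adjusted p = 0.197). The LINE-1 loci tested ranged from TALONG000036919, with 19, 12 and 19 reads in cattle-yak and 34, 23 and 24 in yak (-0.89 ± 0.33, adjusted p = 0.0915), to TALONG000053758, with 18, 37 and 39 in cattle-yak and 26, 3 and 14 in yak (0.92 ± 0.56, adjusted p = 0.326). All of these except ENSBGRG00000012860 were named after their values were seen.

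The 113 loci that were not tested held 30 to 69 pooled reads each, with a median of 43, and in 16 of them at least 1 library was at 0. Without the filter on low counts, which tested all 31044 genes, 10 of these 113 (8.85%) were called higher and 7 (6.19%) lower by edgeR. In the same fit 2.06% of all genes were higher and 2.5% lower. Of the 2893 loci with 30 reads or more that the filter had left untested, 4.15% were higher and 2.11% lower. Each of the 10 higher and 7 lower loci held fewer than 30 reads in its lower group. They met the rule only with the reads of the group where they were high, so these calls and shares are no separate support. Chosen after their values were seen, TALONG000040236 (symbol SESN1) had 25, 13 and 5 reads in cattle-yak and 2, 0 and 0 in yak, and TALONG000075238 had 5, 12 and 34 in cattle-yak and 3, 0 and 0 in yak. The LINE-1 locus TALONG000121650, chosen in the same way, had 7, 19 and 14 reads in cattle-yak and 1, 2 and 0 in yak. Other LINE-1 loci were called lower in that fit and were also chosen after their values were seen. TALONG000051558 had 4, 6 and 9 reads in cattle-yak and 30, 12 and 8 in yak. TALONG000079169 had 1, 1 and 4 in cattle-yak and 7, 8 and 12 in yak. TALONG000040236, TALONG000075238 and TALONG000121650 reached 30 pooled reads through the cattle-yak libraries alone, so that they had to differ. The reads of all loci named here are given as a description. The cattle-yak libraries themselves were far apart at each of these 3 loci.

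No locus was read in all 3 libraries of 1 group and in none of the other. Among all loci with 30 reads or more, 0.0962% were read in all cattle-yak and no yak library and 0.00962% in all yak and no cattle-yak library. Of the 219 loci, 201 (91.8%) were read in all 6 libraries, against 97.1% of all loci with 30 reads or more.

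At the level of transcripts, 13 were higher and 6 lower among 118 tested in the loci (11.0% and 5.08%), against 9.63% higher and 8.86% lower among the 15804 transcripts tested over the whole table. Of these 19 transcripts, 17 belong to the 16 called loci. The exceptions were TALONT000170495 of TALONG000036964, named after its values were seen, with 19, 39 and 14 reads in cattle-yak and 8, 10 and 6 in yak (edgeR adjusted p = 0.0493), and the reference transcript of FUNDC2. Without cattle-yak 1 the count of higher transcripts was 21.

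The 3 most read loci were reference genes in which most reads lay in transcripts with a retrotransposon description. The share of such reads was 71.1% in COX17, 65.3% in FUNDC2 and 89.5% in TMBIM4. They are genes with known roles whose deposited transcripts include ones that carry the reverse transcriptase description. By symbol, nearly all reads were still labelled as the gene's own, with 99.0% in COX17 and 100% in FUNDC2 and in TMBIM4. The shares therefore compare descriptions and do not set RNA of an element against RNA of the gene. COX17 (ENSBGRG00000002369), a copper chaperone for cytochrome c oxidase, had 511, 481 and 612 reads in cattle-yak and 520, 477 and 415 in yak. On the log2 scale COX17 differed by -0.01 (edgeR adjusted p = 0.969), and the groups overlapped. FUNDC2 (ENSBGRG00000024951), a protein of the outer mitochondrial membrane, had 397, 417 and 468 reads in cattle-yak and 456, 616 and 479 in yak (-0.47 ± 0.16, adjusted p = 0.0756). TMBIM4 (ENSBGRG00000018533), a membrane protein of the Golgi that protects from cell death, had 373, 379 and 343 reads in cattle-yak and 243, 229 and 278 in yak (0.35 ± 0.17, adjusted p = 0.181). None of these 3 passed the test, although the TMBIM4 counts did not overlap.

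Further reference loci likewise did not pass. MRPL42 (ENSBGRG00000001775), a protein of the mitochondrial ribosome, had 154, 103 and 181 reads in cattle-yak and 119, 85 and 86 in yak (0.39 ± 0.22, edgeR adjusted p = 0.275). RNF115 (ENSBGRG00000013406), a ubiquitin ligase, had 198, 69 and 49 reads in cattle-yak and 46, 53 and 46 in yak (0.94 ± 0.54, adjusted p = 0.316). There a single library stood out, and without cattle-yak 1 the log2 fold change of RNF115 was 0.09, with adjusted p of 0.0482 to 0.873 over its alternatives. FDFT1 (ENSBGRG00000002753), squalene synthase of the cholesterol pathway, had 62, 99 and 69 reads in cattle-yak and 79, 80 and 50 in yak (-0.05, adjusted p = 0.927), with overlap. TALONG000032554, the remaining locus among the 10 most read, had 88, 97 and 78 reads in cattle-yak and 78, 50 and 53 in yak (0.35 on the log2 scale, adjusted p = 0.362).

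Within a reference gene, the reads can also be split between matching and other transcripts, which sets the gene's own level aside. In MRPL42 the matching share was 59.7%, 53.4% and 63.0% in cattle-yak and 77.3%, 72.9% and 70.9% in yak. In C15ORF40 (ENSBGRG00000015094) it was 66.2%, 74.0% and 66.7% in cattle-yak and 84.3%, 96.9% and 93.0% in yak. In DNAJC15 (ENSBGRG00000004544), a co-chaperone of the mitochondrial inner membrane, it was 62.3%, 66.0% and 57.8% in cattle-yak and 71.7%, 72.3% and 79.2% in yak. In all 3 the matching share was lower in every cattle-yak library than in any yak library, and UBXN7 (ENSBGRG00000018000), a cofactor of the segregase VCP with 43 pooled reads, showed the opposite (76.9 ± 22.3% in cattle-yak and 21.7 ± 2.89% in yak). These genes were named after their values were seen.

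Such separation is not rare across the table. Measured as the share of the most read transcript, 1 of 20 reference loci read in all 6 libraries lay above and 3 lay below in cattle-yak without overlap. Over the 6259 reference genes treated in the same way, the shares were 6.44% above and 14.2% below, so 3 of 20 is near the background.

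COX17 and FUNDC2 were examined as the 2 loci with most reads. In COX17 the matching share was 82.4%, 54.7% and 52.5% in cattle-yak and 80.8%, 80.7% and 80.2% in yak. The yak libraries and cattle-yak 1 were close to each other, and cattle-yak 2 and 3 stood apart. In the same libraries the transcript TALONT000195267, described as COX17 itself and named after its values were seen, had 0, 126 and 192 reads in cattle-yak and 3, 1 and 1 in yak. In FUNDC2 the matching share was 73.3 ± 5.04% in cattle-yak and 57.7 ± 10.3% in yak (SD, n = 3 each), with overlap. The reference transcript of FUNDC2, ENSBGRT00000046080, which carries no element annotation, had 44, 53 and 76 reads in cattle-yak and 108, 96 and 116 in yak, which is -1.07 ± 0.24 on the log2 scale (edgeR adjusted p = 0.00706).

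**Figure D4:**
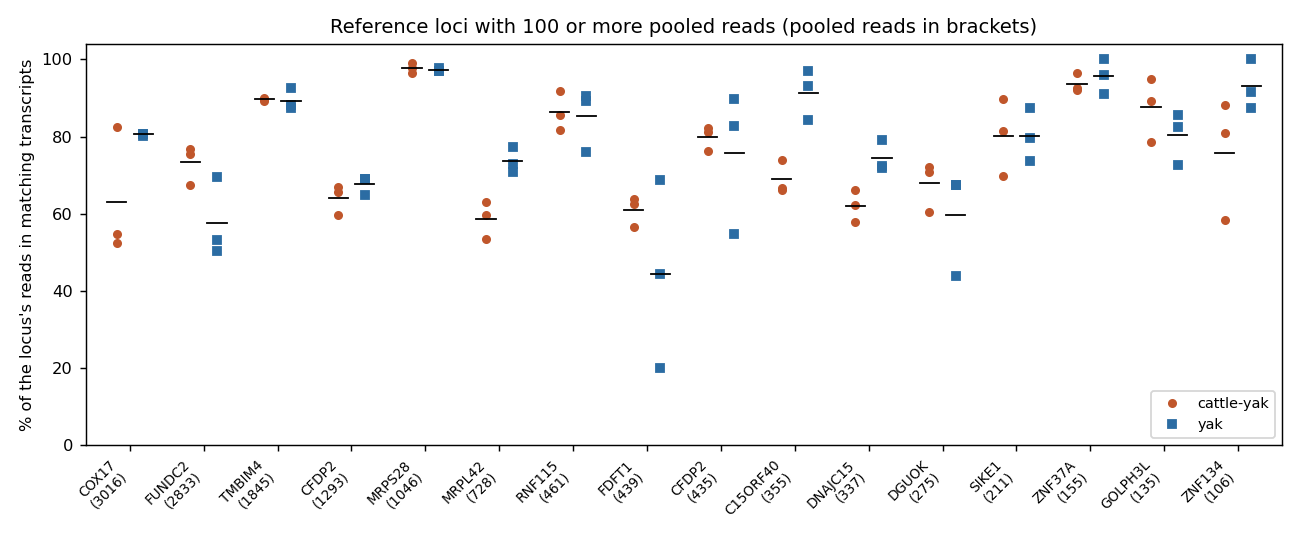
Percent of a reference locus's reads that lie in transcripts with a matching annotation, for the 16 reference loci with 100 pooled reads or more, in each library; cattle-yak (circles) stands left of yak (squares) and black lines are group means. MRPL42, C15ORF40 and DNAJC15 were lower in every cattle-yak library than in any yak library, and COX17 was split within cattle-yak (82.4% against 54.7% and 52.5%).

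Of the matching transcripts outside the loci, 13 had enough reads to be tested, with 1 higher and 1 lower by edgeR (7.69% each). Over all transcripts tested, 9.63% were higher and 8.86% lower, so these counts are near the background. TALONT001680477, a transcript of TTN (the giant elastic protein titin) described as like a reverse transcriptase, had 40, 42 and 44 reads in cattle-yak and 15, 15 and 6 in yak (1.62 ± 0.36, adjusted p = 0.00635). TALONT001167316, a CFDP2 transcript of ENSBGRG00000017680, had 79, 67 and 48 reads in cattle-yak and 107, 107 and 96 in yak (-0.84 ± 0.24, adjusted p = 0.0279). In both the groups did not overlap, and both were named after their values were seen. The most read of the 13, the ATP5PB transcript TALONT000936690, had 263, 217 and 258 reads in cattle-yak and 154, 248 and 252 in yak (edgeR adjusted p = 1.00), with overlap.

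Genes known to restrain retrotransposons, or to act on their RNA, were called at about the rate of all genes. Of 52 listed genes, 38 were found by name and 19 had enough reads to be tested, of which 2 (10.5%) were higher and 1 (5.26%) lower by edgeR, against 6.45% and 6.18% of all genes tested. At an unadjusted edgeR p under 0.05, 3 were higher and 4 lower. The median of the 19 on the log2 scale was 0.31, against 0.02 for all genes tested, and 13 of the 19 lay above 0. PABPC1 (ENSBGRG00000009759), the cytoplasmic poly(A)-binding protein, which binds the LINE-1 RNA particle in human cells, had 174, 236 and 191 reads in cattle-yak and 65, 62 and 72 in yak (1.40 ± 0.20, adjusted p = 0.000648). CBX5 (ENSBGRG00000004059) and CBX3 (ENSBGRG00000001597) encode heterochromatin proteins of the HP1 family and moved in opposite directions. CBX5 had 124, 123 and 116 reads in cattle-yak and 66, 82 and 45 in yak (0.72 ± 0.22, adjusted p = 0.0492). CBX3 had 67, 47 and 59 reads in cattle-yak and 77, 78 and 94 in yak (-0.72 ± 0.22, adjusted p = 0.0445).

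The calls of CBX5 and CBX3 were both at the edge. CBX5 lost its call without any of cattle-yak 1, 2 or 3, yak 1 or yak 3 (edgeR and DESeq2 adjusted p of 0.0248 to 0.221 over its alternatives), and CBX3 without any of cattle-yak 2 or 3 or yak 1, 2 or 3 (0.0267 to 0.168). DESeq2 called only PABPC1 of the list. TRIM28, the corepressor that recruits the histone methyltransferase SETDB1 to transposable elements, differed by 0.55 ± 0.29 on the log2 scale (edgeR adjusted p = 0.244), SETDB1 0.74 ± 0.40 (adjusted p = 0.259) and MPHOSPH8 of the HUSH complex 0.38 ± 0.18 (adjusted p = 0.191), none of which passed. HNRNPL differed by 0.77 ± 0.26 (edgeR adjusted p = 0.0677) and was not called. In the other direction, SUV39H2 differed by -1.18 ± 0.42 (edgeR adjusted p = 0.0846) and RNASEH2A by -0.91 ± 0.34 (adjusted p = 0.0992). APOBEC2 differed by -0.63 ± 0.21 (adjusted p = 0.0699), and these did not pass either. TRIM28, SETDB1, MPHOSPH8, HNRNPL, SUV39H2, RNASEH2A and APOBEC2 are outside the rule for named genes and were chosen after their values were seen. The same holds for THAP9 and SETMAR of the list that follows.

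Too few genes that arose from transposable elements were tested to compare their calls with those of all genes. Of 51 listed genes, 26 were found and 7 were tested. The listed CFDP1 was taken as ENSBGRG00000012860, whose symbol is CFDP2. That locus and TALONG000098973 (TIGD2), both tested, are themselves among the 219 loci. Of the 7 tested genes, edgeR and DESeq2 each called 0, with 0 higher and 1 lower at an unadjusted p under 0.05. Over all genes tested, edgeR called 6.45% higher and 6.18% lower, so 0 of 7 does not set these genes apart. The median log2 fold change of the 7 was -0.43, against 0.02 for all genes tested. The 1 lower was THAP9 (ENSBGRG00000022302), a relative of the P element transposase, with 41, 36 and 65 reads in cattle-yak and 69, 70 and 53 in yak (-0.64 ± 0.25, adjusted p = 0.115). SETMAR (ENSBGRG00000011188), a histone methyltransferase fused to a mariner transposase, had 67, 52 and 68 reads in cattle-yak and 81, 52 and 94 in yak (-0.48 ± 0.25, adjusted p = 0.234). RTL5 was not tested and had 3, 16 and 6 reads in cattle-yak and 0, 3 and 3 in yak.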

How the data were processed

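For 6 nanopore libraries the authors deposited 1 table of transcripts with whole read counts and CPM, which equals each count over the library's total within 0.005, beside symbols, descriptions and Gene Ontology terms. Of tools, fastp, GSNAP and minimap2 are named in the submitters' processing notes. Not given in the sources used here are the genome build, the counting software and the strand setting. In the table, 132 lines without values and 61 transcripts without a gene identifier (at most 0.00249% of a library) were left out.

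Counts of the 179856 transcripts were summed per gene identifier. The test at both levels was the robust quasi-likelihood test of edgeR 4.0.16 under R 4.3.3 (TMM scaling, filterByExpr, Benjamini-Hochberg adjustment over all features tested, threshold 0.05), after the steps were tested on simulated data. Sums over loci and shares were not tested. The reads come from PCR and carry no molecular identifiers, so intervals and floors cover counting error only. Alternatives were DESeq2 1.42.0, other scalings, no filter on low counts, a replicate block, other rules for the loci and leaving out each library. Counting only matching transcripts was added for single loci after seeing the data. The loci and lists were chosen with earlier results of these data known. Named in the text are the loci and transcripts with the smallest p in each direction, the most read loci, reference loci with 100 reads or more, those at the edge of the rule and called list genes; others are marked as chosen after their values were seen. No sequence or coordinates of these loci were used here.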

Additional observations from a re-analysis of the deposited data

How the results depend on the processing

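The counts of called loci (11 higher, 5 lower in cattle-yak) were within 1.5 times the stated values with DESeq2 (9 and 5), other size factors (11 and 5), library size alone (13 and 4) and matching transcripts alone (11 and 5). Without the filter on low counts they were 22 higher and 16 lower, with 25 transcripts higher and 13 lower. With loci of at least 100 reads, 3 were lower, and with CFDP2-type loci alone 2 were higher and 1 lower. Fewer or more loci and transcripts enter under these rules by construction; the cause of the other shifts was not tested. Leaving out 1 library gave 8 to 16 loci higher and 4 to 6 lower, 10 to 21 transcripts higher and 5 to 8 lower, and 1 to 2 called genes of the restraint list (3 with all libraries, 1 with DESeq2). The difference in library share (0.0361 points) was 0.0197 points with 90% matching and 0.00559 points for CFDP2-type loci, and 0.0282 to 0.0442 points without single libraries. For matching transcripts outside the loci it was 0.0214 to 0.0544 points. With the replicate block, 10 loci were higher and 5 lower. The deviations of same-numbered libraries correlated at -0.0382, -0.0157 and 0.0168, so the numbers did not pair the libraries. In that fit CBX3, TALONG000030893, TALONG000075196 and TALONG000089071 were not called. Of 434 values of 37 named features under these alternatives, 378 kept their direction and side of the threshold, and no called one reversed. Of 29 called features, 10 lost their call at least once, 9 of them given beside their values and the last being TALONT001384268, a lower transcript of TALONG000133354 (adjusted p up to 0.0884 over its edgeR and DESeq2 alternatives). With 3 libraries a group and a median of 57 reads a locus, depth left 113 of 219 loci untested.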
